A study of Mus musculus with 16 samples.

Results

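Immediate early and activity-induced genes are described here in nuclei of the mouse dentate gyrus (DG). They are 36 of the 32285 genes counted, namely *Fos*, *Fosb*, *Fosl2*, *Jun*, *Junb*, *Jund*, *Egr1*, *Egr2*, *Egr3*, *Egr4*, *Arc*, *Npas4*, *Nr4a1*, *Nr4a2*, *Nr4a3*, *Ier2*, *Ier5*, *Dusp1*, *Dusp5*, *Dusp6*, *Homer1*, *Klf4*, *Klf6*, *Btg2*, *Gadd45b*, *Sik1*, *Per1*, *Inhba*, *Tiparp*, *Ptgs2*, *Csrnp1*, *Nfil3*, *Maff*, *Atf3*, *Trib1* and *Rgs2*. They were chosen by name as genes known to respond to neuronal activity, and each name matched a single row of the gene lists. All 36 had at least 1 UMI (unique molecular identifier, a counted RNA molecule) in granule cells (GCs).

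When a neuron fires, calcium entering through synaptic receptors and voltage-gated channels activates kinases that phosphorylate transcription factors already bound in the nucleus, among them CREB at cAMP response elements and SRF with its Elk partners at serum response elements. Genes under these factors are transcribed within minutes without new protein synthesis, and their RNAs are short-lived. The first products are mostly transcription factors (the *Fos* and *Jun* proteins that form AP-1, the Egr zinc-finger proteins, *Npas4* and the Nr4a nuclear receptors), together with synaptic proteins such as *Arc*, secreted signals, and enzymes that switch the kinases off again. In the DG, where few GCs fire in a given setting, *Arc* and *Fos* are widely used to find the cells that were recently active.

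The mice were wild type (WT, labelled VV) or homozygous for the V321L substitution in *Nrg1*, the gene of a neuronal growth factor (labelled LL). The study describes this substitution as weakening the signals that *Nrg1* proteins send from the membrane to the nucleus. Each genotype had 4 mice, of which 2 were female and 2 male (F1, F2, M1 and M2). V321L is a germline variant, so no cell type in these mice carries the WT protein. The sources used here name no stimulus, training or age for the mice of the nuclei libraries. The DG was dissected and frozen, nuclei were extracted with a kit, and RNA and open chromatin were read from the same nuclei with the 10x Multiome assay, 1 library per mouse.

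Counts over all barcodes ranged from 4326426 to 14624265 UMIs in the WT libraries and from 15505354 to 23582057 in the V321L libraries. After filtering, 11023 GCs were used (6873 WT and 4150 V321L), between 807 and 2507 per mouse, together with 1925 other excitatory neurons, 479 GABAergic neurons and 5 further classes with at least 202 nuclei. Each class expressed its own marker list above the rest of the nuclei, and in GCs all 8 granule cell markers were found in at least 5% of the nuclei. The median GC held 1480 UMIs in WT and 3828.5 in V321L mice, and the genotypes mostly fell into different clusters of GCs. Clusters 1, 2, 3 and 5 held 32.1%, 27.9%, 26.0% and 10.9% of the WT GCs, and clusters 0 and 7 held 64.2% and 17.3% of the V321L GCs. RNA of ribosomal protein genes stood at 506 to 1259 CPM (UMIs scaled to a common total for each sum) in WT and 8773 to 18915 CPM in V321L GC sums. The mitochondrial share was 0.192% to 0.303% in WT and 0.417% to 1.17% in V321L GCs. Genotype, library depth and this RNA makeup move together in these libraries and cannot be told apart. Of 17015 barcodes called as nuclei, 171 occurred in more than 1 library.

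Most of these genes were rare in GCs. Levels are given as CPM of the UMIs summed over the GCs of a mouse, in the order F1, F2, M1 and M2 within each genotype, so that fewer expressing nuclei and less RNA per nucleus cannot be told apart in them. The 4 WT sums together held 22 UMIs of *Nr4a1*, 25 of *Arc* and 5 of *Fos*, and 2709 of *Homer1*. *Homer1*, a postsynaptic scaffold protein, stood at 199.5, 188, 224 and 206 CPM in the WT mice and 108, 94.8, 97.9 and 134 CPM in the V321L mice. *Jun*, an AP-1 subunit, stood at 28, 16.3, 38.1 and 30.3 CPM in the WT mice and 129, 90.1, 106 and 129 CPM in the V321L mice. *Inhba*, the subunit of the secreted factor activin A, stood at 54.8, 55.6, 56 and 53.9 CPM in the WT mice and 31.3, 38.3, 38.1 and 32.3 CPM in the V321L mice. All 4 V321L mice lay above all 4 WT mice for *Jun* and below them for *Homer1* and *Inhba*. Counts for *Homer1* cover the whole gene and cannot separate its short activity-induced form from the long form.

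Free RNA, taken from barcodes with at most 100 UMIs, held 31 of the 36 genes at a higher mean level than GCs did in WT libraries. The count was also 31 in V321L libraries, but the exceptions were partly different genes. The same count over all genes is not given, so it is not shown to be particular to these genes. *Arc* stood at 12.1 ± 4.60 CPM in WT and 33.9 ± 11.5 CPM in V321L libraries in this fraction (mean ± SD, n = 4 each), *Egr3* at 117 ± 30.2 CPM in WT and 35.1 ± 4.44 CPM in V321L libraries and *Jun* at 152 ± 17.2 CPM in WT and 151 ± 21 CPM in V321L libraries. The corresponding GC means were 2.42 and 5.99 CPM for *Arc*, 15.4 and 18.1 for *Egr3*, and 28.2 and 114 for *Jun*. For other genes that differed between genotypes in GCs (below), mean free RNA often differed in the same direction. It stood at 25.2 and 55.1 CPM in WT and V321L libraries for *Junb*, 34.1 and 108 for *Jund* and 14.5 and 37.9 for *Ier5*. For *Homer1* it stood at 152 and 53.3 CPM and for *Inhba* at 46.4 and 11.4. It was close between genotypes for *Btg2* (20.2 and 22.7 CPM) and *Per1* (12.3 and 13.4 CPM). Free RNA can put a UMI of these genes into a GC, or into a nucleus of another class, that did not make it. Its part in the results was not tested. *Homer1* and *Inhba* were the only genes with a higher mean level in GCs than in free RNA in both genotypes. *Klf4*, *Maff* and *Nfil3* were so in WT libraries alone, and *Btg2*, *Sik1* and *Tiparp* in V321L libraries alone. For *Inhba*, free RNA was nevertheless above GCs in WT F2 (56.3 against 55.6 CPM) and WT M2 (62.2 against 53.9 CPM).

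The promoters of 5 of the genes are shown because they belong to those that differed most within GCs and to one that did not. The windows run from 250 bases before to 50 bases after the start of the gene, were taken from RefSeq on build GRCm38.p6 (mm10) and are printed 5′ to 3′ on the strand of the gene. They are *Nr4a1* (chr15:101266596-101266895, plus strand), *Nr4a2* (chr2:57123954-57124253, minus strand), *Nr4a3* (chr4:48045055-48045354, plus strand), *Dusp1* (chr17:26508423-26508722, minus strand) and *Jun* (chr4:95052173-95052472, minus strand). Capitals mark TGACG, the half-site of the cAMP response element, or its reverse complement CGTCA. In *Dusp1* the full palindrome TGACGTCA holds both, and in *Jun* they mark a match to the MEF2 site, 33 bases before the start.
Nr4a1: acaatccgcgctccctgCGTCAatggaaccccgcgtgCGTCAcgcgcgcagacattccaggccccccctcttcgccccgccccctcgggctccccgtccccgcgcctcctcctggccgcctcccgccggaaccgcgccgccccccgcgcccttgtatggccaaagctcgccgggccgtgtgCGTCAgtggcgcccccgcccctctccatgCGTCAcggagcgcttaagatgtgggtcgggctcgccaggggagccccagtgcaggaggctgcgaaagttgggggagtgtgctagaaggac
Nr4a2: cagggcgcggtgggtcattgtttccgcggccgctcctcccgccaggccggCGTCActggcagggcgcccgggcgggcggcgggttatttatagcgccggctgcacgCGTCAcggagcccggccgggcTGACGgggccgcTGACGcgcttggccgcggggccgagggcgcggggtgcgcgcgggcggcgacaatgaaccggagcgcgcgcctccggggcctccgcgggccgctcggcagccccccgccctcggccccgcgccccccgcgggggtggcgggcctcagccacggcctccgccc
Nr4a3: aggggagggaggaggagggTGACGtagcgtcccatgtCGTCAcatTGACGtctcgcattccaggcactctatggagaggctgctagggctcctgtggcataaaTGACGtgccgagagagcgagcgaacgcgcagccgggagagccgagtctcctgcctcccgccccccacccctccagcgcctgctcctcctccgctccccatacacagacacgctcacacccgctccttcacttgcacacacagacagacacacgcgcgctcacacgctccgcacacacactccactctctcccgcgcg
Dusp1: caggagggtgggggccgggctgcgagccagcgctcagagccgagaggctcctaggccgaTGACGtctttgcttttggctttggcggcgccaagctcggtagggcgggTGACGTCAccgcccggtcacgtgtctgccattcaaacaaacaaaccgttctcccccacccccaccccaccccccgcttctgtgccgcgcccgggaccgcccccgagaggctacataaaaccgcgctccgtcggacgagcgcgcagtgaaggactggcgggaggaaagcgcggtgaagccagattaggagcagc
Jun: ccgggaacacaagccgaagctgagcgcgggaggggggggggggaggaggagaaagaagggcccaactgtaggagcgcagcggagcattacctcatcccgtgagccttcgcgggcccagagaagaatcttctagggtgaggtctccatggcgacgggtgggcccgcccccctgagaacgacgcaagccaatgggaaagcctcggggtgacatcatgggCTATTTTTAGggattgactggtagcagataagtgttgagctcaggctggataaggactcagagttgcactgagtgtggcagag

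Each of the 3 Nr4a promoters, which drive orphan nuclear receptors of a single family, held 4 half-sites. In *Nr4a1* they began at positions -233, -213, -69 and -40 from the start, and in *Nr4a3* all 4 lay between -231 and -147. No other of the 30 genes with a RefSeq window held as many, and among all 27025 genes with a window 0.255% did, a gene being counted when any of its windows did (1.37 windows per gene among the 30 and 1.22 among all genes). At least 1 half-site stood in 21 of the 30, against 23.0% of all genes. The full element was found in *Btg2*, *Maff* and *Dusp1* (10.0%, against 2.03% of all genes), and the CArG box bound by SRF in *Egr2* and *Dusp5* (6.67%, against 1.81%). The MEF2 site was matched in *Atf3*, *Jun* and *Per1* (10.0%, against 0.636%), and TATAAA in 5 genes (16.7%, against 15.7%). The printed promoters were chosen by the differences within GCs given below. Outside them, *Homer1* held 3 half-sites and *Btg2* 2, and both were called as higher in *Sorcs3*+ GCs. *Inhba*, *Tiparp*, *Ier5*, *Jund* and *Gadd45b* held 0 and were called as higher too, while *Egr4* and *Rgs2* held 2 and were not called. Whether half-sites go with the difference was not tested. Both strands were searched, and these matches describe letters in a window and not binding. *Egr1*, *Egr3*, *Arc*, *Ier2*, *Sik1* and *Trib1* were not among the windows.

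The study used *Sorcs3*, which encodes a sorting receptor of the Vps10 family, and *Penk*, the precursor of the enkephalins, to mark a subpopulation of GCs. It was asked whether activity-induced genes differ in the GCs that carry these RNAs. GCs with at least 1 *Sorcs3* UMI (*Sorcs3*+, 1152 nuclei) were compared with the remaining 9871 (*Sorcs3*-) within each mouse. Of the 36 genes, 23 passed the low-count filter, 16 were higher and 0 lower in *Sorcs3*+ GCs at an adjusted p under 0.05 by the quasi-likelihood test of edgeR with mouse as a block. Over all 11231 genes tested, 6.25% were higher and 6.54% lower. The median log2 fold change was 0.85 over the 23 genes and -0.03 over all genes tested. The filter used the sums of both groups together, so a gene could pass through its *Sorcs3*+ sums alone. *Arc*, *Nr4a1*, *Gadd45b*, *Sik1* and *Dusp1* stood at no more than 6.19, 6.19, 5.65, 4.34 and 2.18 CPM in any *Sorcs3*- sum. Part of the count of 16 higher and 0 lower can therefore come from the filter.

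**Figure D1:**
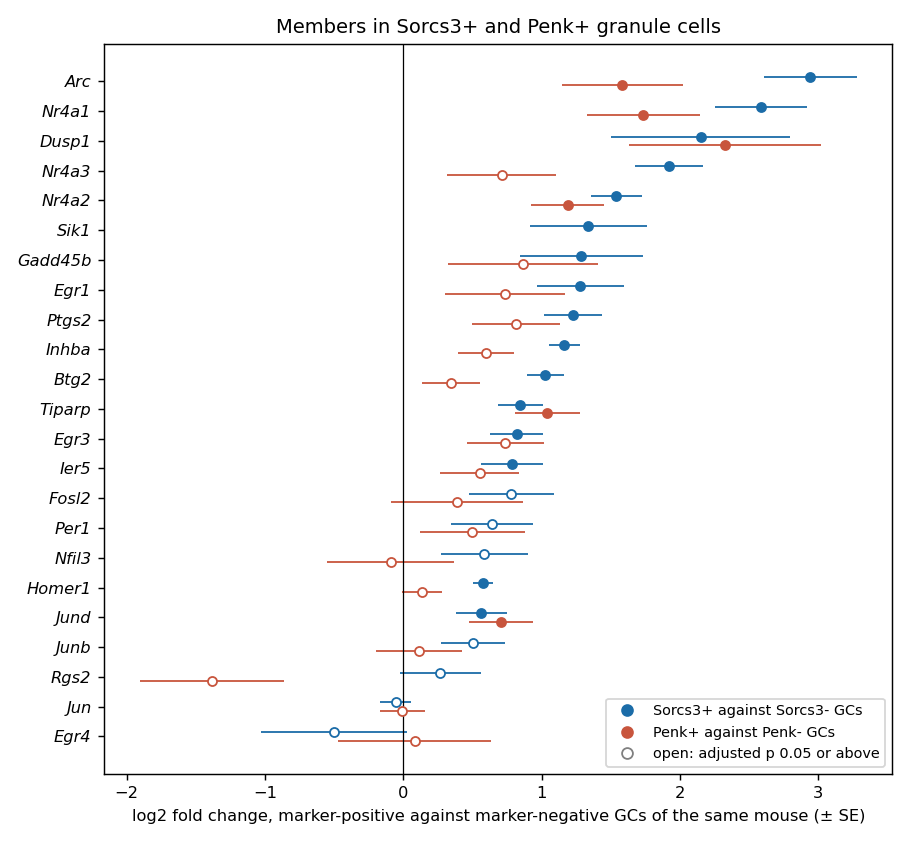
Log2 fold change of the activity-induced genes that passed the filter between GCs with and without a UMI of *Sorcs3* (blue) or *Penk* (red), with mouse as a block, where bars are SE, filled points have an adjusted p under 0.05 and open points do not. In the *Sorcs3* comparison 16 of 23 genes were higher, from *Jund* at 0.56 to *Arc* at 2.94, while *Jun* stayed at -0.06.

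*Arc*, a synaptic protein that travels to active dendrites, differed most. In *Sorcs3*+ GCs it stood at 3.58, 1.76, 32.6 and 4.60 CPM in the WT mice and 18.6, 15.4, 33.1 and 39.1 CPM in the V321L mice, and in *Sorcs3*- GCs of the same mice at 0.362, 0.712, 3.73 and 1.84 and 2.08, 1.81, 1.86 and 6.19 CPM. All 8 mice were higher in *Sorcs3*+ GCs, with a log2 fold change of 2.94 ± 0.33 SE, adjusted p = 1.38e-16. Over the 8 mice *Arc* held 61 UMIs in *Sorcs3*+ and 55 in *Sorcs3*- GCs, and it was not among the genes called in the WT mice alone. The nuclear receptors followed. *Nr4a1* stood at 1.79, 1.76, 8.15 and 6.90 CPM in the WT mice and 26.1, 21.8, 22.1 and 28.6 CPM in the V321L mice in *Sorcs3*+ GCs and at 0.725, 0.949, 3.73 and 1.23 and 2.97, 3.43, 1.55 and 6.19 CPM in *Sorcs3*- GCs, and its log2 fold change was 2.58 ± 0.33 SE, adjusted p = 3.63e-13. In the WT mice the *Sorcs3*+ value of *Nr4a1* rested on 1, 1, 1 and 3 UMIs, and in the V321L mice on 14, 17, 10 and 11. *Nr4a3* stood at 8.95, 14.1, 65.2 and 13.8 CPM in the WT mice and 31.7, 15.4, 17.7 and 44.3 CPM in the V321L mice in *Sorcs3*+ GCs, against 6.16, 4.74, 9.94 and 5.83 and 7.43, 2.82, 4.34 and 8.74 CPM (log2 fold change 1.92 ± 0.25 SE, adjusted p = 3.73e-13). *Nr4a2* stood at 23.3, 21.1, 32.6 and 29.9 CPM in the WT mice and 57.8, 21.8, 50.7 and 44.3 CPM in the V321L mice, against 11.2, 6.64, 14.3 and 8.29 and 14.6, 10.3, 17.1 and 14.2 CPM (log2 fold change 1.54 ± 0.18 SE, adjusted p = 5.51e-15). Each of the 3 receptors, whose promoters are printed above, was higher in *Sorcs3*+ GCs in 8 of 8 mice.

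*Homer1*, *Inhba*, *Ptgs2* and *Tiparp* were also higher in 8 of 8 mice. *Homer1* stood at 249, 194, 416 and 336 CPM in the WT mice and 201, 123, 110.3 and 219 CPM in the V321L mice in *Sorcs3*+ GCs and at 189.5, 187, 209 and 189 and 93.6, 90.3, 96.2 and 122 CPM in *Sorcs3*- GCs, a log2 fold change of 0.57 ± 0.07 SE, adjusted p = 6.13e-14. *Inhba* stood at 55.5, 104, 147 and 80.5 CPM in the WT mice and 87.6, 76.8, 115 and 57.3 CPM in the V321L mice, against 54.7, 49.1, 49.1 and 50.4 and 22.3, 32.3, 27.3 and 28.8 CPM (log2 fold change 1.16 ± 0.11 SE, adjusted p = 2.63e-23). In WT F1 the values of *Inhba* were nearly equal, and in the remaining mice the gap was wider. *Ptgs2*, the inducible cyclooxygenase that makes prostaglandins, stood at 23.3, 24.6, 24.4 and 20.7 CPM in the WT mice and 22.4, 21.8, 30.9 and 28.6 CPM in the V321L mice, against 12, 9.25, 11.2 and 11.1 and 11.3, 8.87, 10.9 and 9.46 CPM (log2 fold change 1.23 ± 0.21 SE, adjusted p = 1.37e-07), and all 8 *Sorcs3*+ values lay above all 8 *Sorcs3*- values. *Tiparp*, an ADP-ribosyltransferase, stood at 28.6, 26.4, 40.7 and 29.9 CPM in the WT mice and 35.4, 38.4, 48.5 and 49.5 CPM in the V321L mice, against 21.7, 18, 19.3 and 24 and 16, 23, 22.6 and 14.9 CPM (log2 fold change 0.85 ± 0.16 SE, adjusted p = 3.81e-06).

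**Figure D2:**
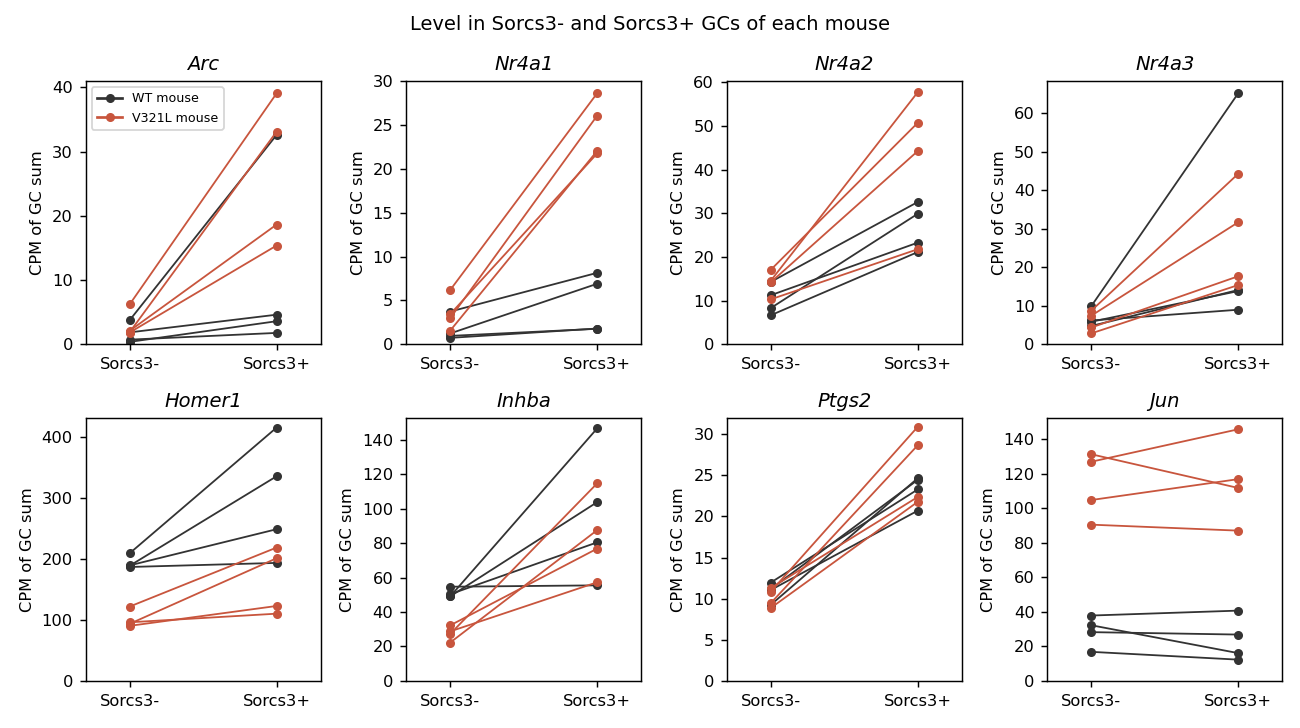
Level (CPM of the GC sum, linear axis from 0) of 8 activity-induced genes in *Sorcs3*- and *Sorcs3*+ GCs, with 1 line per mouse (black WT, red V321L). The lines rise in all 8 mice for *Arc*, *Nr4a1*, *Nr4a2*, *Nr4a3*, *Homer1*, *Inhba* and *Ptgs2*, and for *Jun* they rise in 3 of 8.

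Among the transcription factors, the zinc-finger genes *Egr1* and *Egr3* rose by 1.28 (adjusted p = 7.85e-04) and 0.82 (adjusted p = 3.14e-04) on the log2 scale. *Egr1* stood at 7.16, 1.76, 8.15 and 11.5 CPM in the WT mice and 26.1, 3.84, 24.3 and 13 CPM in the V321L mice in *Sorcs3*+ GCs, against 2.90, 2.13, 4.97 and 3.07 and 8.32, 4.03, 5.27 and 7.64 CPM, and was higher in 6 of 8 mice. Of the AP-1 genes, *Jund* rose by 0.56 (adjusted p = 0.0210), although it was lower in all 4 WT mice and higher in all 4 V321L mice. *Jun* had a log2 fold change of -0.06 ± 0.11 SE, adjusted p = 0.846, with 26.9, 12.3, 40.7 and 16.1 CPM in the WT mice and 112, 87.1, 117 and 146 CPM in the V321L mice in *Sorcs3*+ GCs and 28.3, 16.8, 37.9 and 32.2 and 131, 90.5, 105 and 127 CPM in *Sorcs3*- GCs. *Junb* had a value of 0.50 (adjusted p = 0.155), *Fosl2* of 0.78 (adjusted p = 0.0784) and *Egr4* of -0.50 (adjusted p = 0.671). *Fos* did not pass the filter and held 13 UMIs in *Sorcs3*+ and 14 UMIs in the far more numerous *Sorcs3*- GCs, and *Npas4*, a neuron-specific factor induced by calcium, held 11 and 25.

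Calls were also made for 5 genes of other kinds. *Dusp1*, a phosphatase that inactivates MAP kinases, rose by 2.15 (adjusted p = 0.0101), but on 14 UMIs in *Sorcs3*+ GCs, 7 of them in V321L F1, with 0 UMIs in 3 mice. *Btg2*, an antiproliferative cofactor, rose by 1.03 (adjusted p = 1.68e-12) and was higher in 6 of 8 mice. *Sik1*, a kinase that restrains CREB coactivators, rose by 1.34 (adjusted p = 0.0168) and was higher in 7 of 8 mice. *Gadd45b*, a stress-induced factor linked to DNA demethylation, rose by 1.29 (adjusted p = 0.0343) in 6 of 8 mice. *Ier5* rose by 0.79 (adjusted p = 0.00543) and was higher in 5 of 8 mice, with 0 UMIs in *Sorcs3*+ GCs of WT F2 and WT M1. The calls of *Jund* and of 3 of these genes depended on single mice. The call was lost for *Jund* without V321L F1, V321L F2, V321L M1 or V321L M2 (adjusted p = 0.0581 to 0.175), *Gadd45b* without WT F1, WT M1, V321L F1, V321L F2 or V321L M2 (adjusted p = 0.0524 to 0.188), *Sik1* without WT M1, V321L F2 or V321L M2 (adjusted p = 0.0511 to 0.154) and *Ier5* without V321L F2 or V321L M2 (adjusted p = 0.0635 to 0.1005). Not past the threshold were the clock gene *Per1* (0.64, adjusted p = 0.159), *Nfil3* (0.59, adjusted p = 0.266) and *Rgs2*, a regulator of G protein signalling (0.27, adjusted p = 0.686).

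Read nucleus by nucleus, *Arc* was found in 3.56% against 0.507% of *Sorcs3*+ and *Sorcs3*- GCs, *Nr4a1* in 3.65% against 0.588%, *Nr4a2* in 7.99% against 2.70%, *Inhba* in 18.2% against 9.08% and *Fos* in 0.955% against 0.122%. Most *Sorcs3*+ GCs thus held no UMI of any one of these genes. After thinning to 1000 UMIs, at which 491 GCs still held a *Sorcs3* UMI, *Nr4a2* was found in 3.46% against 1.28%, *Inhba* in 8.15% against 3.87% and *Homer1* in 20.6% against 12.6%, each higher in 8 of 8 mice. *Arc* was left with 3 *Sorcs3*+ nuclei at that depth (0.611% against 0.355%), too few to compare. *Jun* was found in 5.50% against 6.13% and was higher in 4 of 8 mice.

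*Sorcs3*+ GCs held more UMIs than *Sorcs3*- GCs in all 8 mice, with a ratio of the medians between 1.01 in V321L M1 (4472.5 against 4437 UMIs) and 1.53 in WT F1 (2847.5 against 1866 UMIs). Against 5 *Sorcs3*- nuclei of the closest depth for each *Sorcs3*+ nucleus, 14 of 20 genes tested were higher and 0 lower, where 6.18% of all genes tested were higher and 7.7% lower. In the WT mice alone 6 of 10 genes tested were higher (*Egr3*, *Homer1*, *Inhba*, *Nr4a2*, *Nr4a3* and *Ptgs2*), where 4.25% of all genes were higher and 3.43% lower, and in the V321L mice alone 15 of 25, *Fos* among them, where 4.48% of all genes were higher and 3.97% lower. In each genotype 0 of these genes were lower. A difference of the effect between genotypes was called by edgeR for 0 of the 23 genes (2 at an unadjusted p under 0.05). Beside these values, the summed markers of oligodendrocyte precursors were higher in *Sorcs3*+ GCs of 8 of 8 mice (59.6 to 177 CPM, against 17.4 to 41.8). Of these 5 markers, 2 were tested singly and 1 was called as higher. The summed oligodendrocyte markers were higher in 7 of 8 mice (446 to 593 CPM, against 359 to 486). The summed granule cell markers were higher in 8 of 8 (2355 to 2747 CPM, against 2178 to 2446). Tested singly, however, 2 of the 8 granule cell markers were called as higher and 5 as lower, with a median log2 fold change of -0.35. The summed markers of other excitatory neurons were higher in 4 of 8 (505 to 806 CPM, against 494 to 828). Without GCs that held a UMI of the list for other excitatory neurons, 7 of 15 genes tested were higher and 0 lower, where 2.01% of all genes were higher and 2.57% lower (*Arc*, *Btg2*, *Homer1*, *Inhba*, *Nr4a1*, *Ptgs2* and *Tiparp*).

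In *Penk*+ GCs (348 nuclei, 72 in WT and 276 in V321L mice) 22 genes passed the filter, of which 6 were higher and 0 lower than in *Penk*- GCs, where 2.21% of all genes tested were higher and 3.84% lower. The 6 were *Arc*, *Dusp1*, *Jund*, *Nr4a1*, *Nr4a2* and *Tiparp*, and all 6 were also among the 16 of the *Sorcs3* comparison, which uses the same GCs. Here too a gene could pass the filter through its *Penk*+ sums alone. *Dusp1* and *Nr4a1* stood at no more than 2.72 and 7.81 CPM in any *Penk*- sum. Beside these values, the summed markers of oligodendrocyte precursors were higher in *Penk*+ GCs of 8 of 8 mice (37.7 to 194 CPM, against 21.1 to 57.0). Of these 5 markers, 2 were tested singly and 1 was called as higher. The summed granule cell markers were higher in 6 of 8 mice and those of other excitatory neurons in 3 of 8. Tested singly, 2 of the 8 granule cell markers were called as higher and 2 as lower, with a median log2 fold change of -0.39. The median depth was higher in 6 of 8 (ratio 0.960 to 1.49). *Nr4a2* stood at 58.2, 27.3, 0 and 49.7 CPM in the WT mice and 56.9, 22.1, 48.9 and 10.8 CPM in the V321L mice in *Penk*+ GCs and at 12.1, 8.22, 15.8 and 10.4 and 17.3, 11, 19.4 and 18.3 CPM in *Penk*- GCs, a log2 fold change of 1.19 ± 0.26 SE, adjusted p = 3.15e-04. It was higher in 6 of 8 mice. *Tiparp* stood at 105, 54.6, 0 and 0 CPM in the WT mice and 44.2, 35.4, 57.8 and 43.1 CPM in the V321L mice, against 20.7, 18.7, 21 and 24.9 and 16.5, 24.2, 23.8 and 17.7 CPM (log2 fold change 1.04 ± 0.23 SE, adjusted p = 4.49e-04), and was also higher in 6 of 8 mice.

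*Arc* had a log2 fold change of 1.58 ± 0.44 SE, adjusted p = 0.00805 in *Penk*+ GCs, on 1, 0, 0 and 0 UMIs in the WT mice and 2, 4, 8 and 3 UMIs in the V321L mice. *Nr4a1* had 1.73 ± 0.41 SE, adjusted p = 9.26e-04 on 1, 0, 0 and 0 UMIs and 8, 4, 4 and 5 UMIs. The value of *Dusp1* was 2.33 ± 0.70 SE, adjusted p = 0.0184 on 8 UMIs in all, 5 of them in V321L F1, and that of *Jund* was 0.71 ± 0.23 SE, adjusted p = 0.0369. *Egr1* (0.73, adjusted p = 0.411), *Inhba* (0.60, adjusted p = 0.0533), *Homer1* (0.14, adjusted p = 0.738) and *Jun* (-0.01, adjusted p = 0.995) were not past the threshold. In the V321L mice alone 6 of 24 genes were higher, where 2.54% of all genes were higher and 3.07% lower, and in the 4 WT mice alone 0 of 10 (edgeR, 1 at an unadjusted p under 0.05), where 0.334% were higher and 1.77% lower. Leaving out single mice ended the call of *Arc* without V321L M1 (adjusted p = 0.401), *Dusp1* without WT F2 or V321L F1 (adjusted p = 0.112 to 0.532) and *Jund* without WT F2, WT M2, V321L F2, V321L M1 or V321L M2 (adjusted p = 0.0569 to 0.404). A genotype difference of the effect was called by edgeR for 0 of 22 genes (2 at an unadjusted p under 0.05). Against depth-matched nuclei 3 of 7 genes tested were higher (*Jund*, *Nr4a2* and *Tiparp*), where 3.48% of all genes were higher and 5.09% lower, and without GCs that held a UMI of the list for other excitatory neurons 0 of 10 (edgeR, 0 at an unadjusted p under 0.05), where 0.135% of all genes were higher and 0.741% lower.

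A single cluster, number 16, held 160 GCs (83 WT and 77 V321L), between 0.844% and 2.07% of the GCs of a mouse. The clustering left out the 36 genes, *Penk* and *Sorcs3*, but used all other variable genes of these nuclei, so its values are a description with no test. *Sorcs3* was found in 94.4% of its nuclei, against 9.21% of other GCs, and *Penk* in 19.4%, against 2.92%. Its summed granule cell markers were as in other GCs (2361 against 2362 CPM) and its median depth was higher (3469.5 against 2293 UMIs). The summed markers of oligodendrocyte precursors stood at 241 against 32.2 CPM, those of oligodendrocytes at 524 against 431 CPM and those of other excitatory neurons at 536 against 636 CPM.

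With both genotypes pooled, nuclei of cluster 16 held more RNA of most of the 36 genes than other GCs. *Nr4a1* stood at 91.4 against 2.41 CPM, *Nr4a2* at 128 against 12.2 CPM and *Nr4a3* at 100.1 against 5.88 CPM. *Arc* stood at 70.3 against 2.58 CPM, *Fos* at 21.1 against 0.510 CPM, *Egr1* at 47.4 against 4.69 CPM and *Npas4* at 10.54 against 1.02 CPM. Higher as well were *Homer1* at 634 against 139 CPM, *Inhba* at 267 against 39.96 CPM, *Tiparp* at 119 against 20.3 CPM and *Ptgs2* at 72 against 10.9 CPM. *Jun* went the other way, at 58 against 72.5 CPM. The level of *Nr4a1* in the cluster was 14.4 CPM in WT (3 UMIs of 208611 in 83 nuclei) and 136 CPM in V321L mice (49 UMIs of 360612 in 77 nuclei), against 1.43 and 3.23 CPM in other GCs. The pooled values of *Arc*, *Fos*, *Egr1* and *Npas4* also came mostly from V321L nuclei. The WT nuclei of the cluster held 2, 1, 3 and 0 UMIs of these genes, and the V321L nuclei 38, 11, 24 and 6.

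The difference between *Sorcs3*+ and *Sorcs3*- GCs was smaller without this cluster, which held 10.1% to 18.6% of the *Sorcs3*+ and at most 0.347% of the *Sorcs3*- GCs of a mouse. With its nuclei left out, 6 of 19 genes tested were higher in *Sorcs3*+ GCs (*Arc*, *Btg2*, *Egr3*, *Inhba*, *Nr4a2* and *Ptgs2*) and 0 lower, where 4.22% of all genes were higher and 5.45% lower. *Arc* then had a log2 fold change of 1.85 (adjusted p = 0.00150), *Inhba* of 0.53 (adjusted p = 0.00183) and *Nr4a2* of 0.69 (adjusted p = 0.0343). *Homer1* came to -0.07 (adjusted p = 0.741), and *Nr4a1* no longer passed the filter. In the *Penk* comparison 0 of 20 genes were higher and *Rgs2* was lower once the cluster was left out (edgeR, 7 at an unadjusted p under 0.05), where 1.77% of all genes were higher and 3.54% lower.

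Between genotypes, 23 of the 36 genes passed the filter in GC sums. In V321L GCs 10 were higher and 5 lower by the quasi-likelihood test of edgeR, while 38.6% of all 12337 genes tested were higher and 31.5% lower. The median log2 fold change was 0.74 over the 23 genes and 0.12 over all genes. The filter used the sums of both genotypes together, so a gene could pass through its V321L sums alone. *Egr4*, *Gadd45b* and *Nr4a1* stood at no more than 1.73, 2.89 and 4.04 CPM in any WT sum. Part of the count of 10 higher can therefore come from the filter. Log2 fold changes below use TMM scaling, which assumes that most genes do not differ, and lie lower than the ratio of the CPM values beside them. With plain library sizes in its place the median over all genes moved from 0.12 to 0.56. Values in parentheses after the levels are log2 fold changes of V321L against WT with their SE and adjusted p.

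The *Jun* family rose in V321L GCs. *Jun*, given above, had a log2 fold change of 1.62 ± 0.18 SE, adjusted p = 4.15e-06. *Junb* stood at 4.22, 1.46, 6.93 and 3.25 CPM in the WT mice and 23.3, 15.2, 20.1 and 25.9 CPM in the V321L mice (2.13 ± 0.30 SE, adjusted p = 3.37e-05), and *Jund* at 2.71, 1.46, 8.66 and 3.52 CPM in the WT mice and 36.4, 29.97, 24.2 and 46.9 CPM in the V321L mice (2.87 ± 0.33 SE, adjusted p = 5.94e-06). All V321L mice lay above all WT mice for the 3 genes. The *Fos* genes gave few counts, with 0, 1, 2 and 2 UMIs in the WT mice and 5, 4, 6 and 7 UMIs in the V321L mice for *Fos*. *Fosl2*, the only *Fos* gene that passed the filter, was called as lower with TMM scaling (-0.78 ± 0.25 SE, adjusted p = 0.0137), although its CPM values overlapped between genotypes. The call of *Fosl2* was lost without WT F2 (adjusted p = 0.0613).

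**Figure D3:**
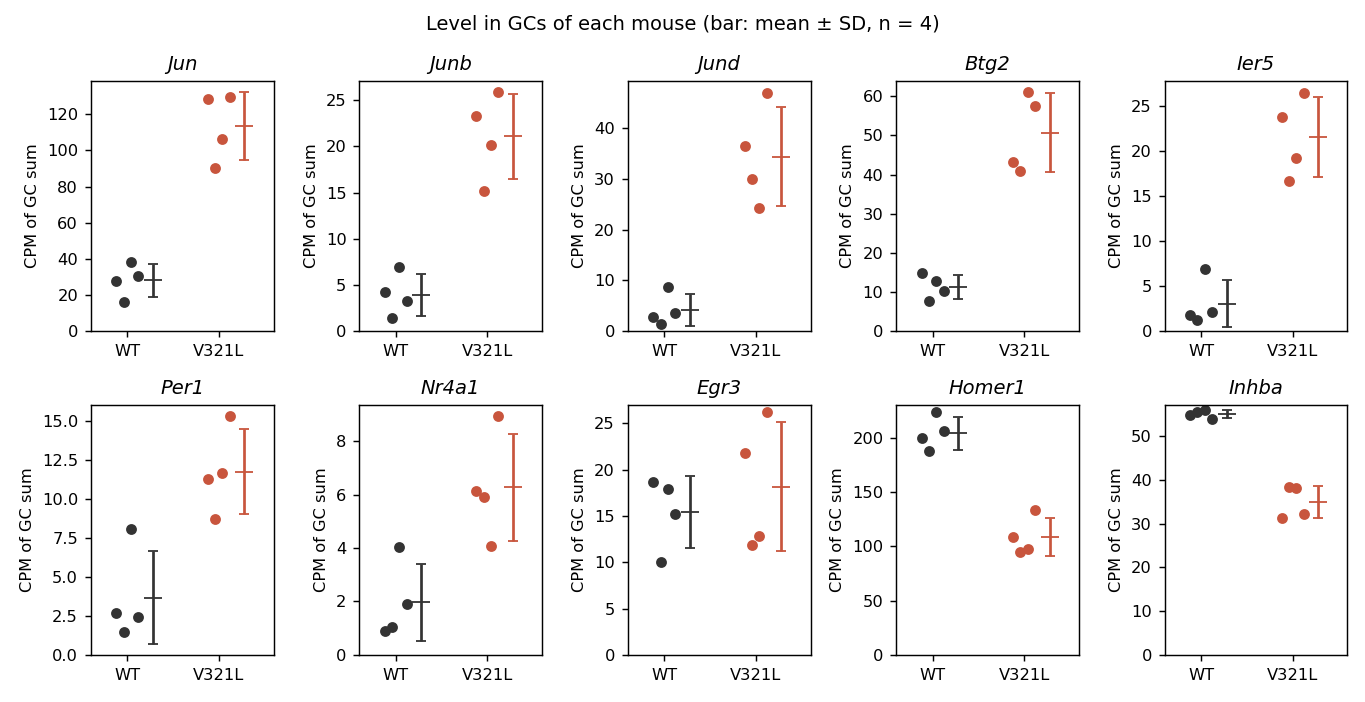
Level (CPM of the GC sum, linear axis from 0) of 10 activity-induced genes in each mouse, with points for mice and a bar for the mean ± SD of 4 mice per genotype. *Jun*, *Junb*, *Jund*, *Btg2*, *Ier5*, *Per1* and *Nr4a1* were higher in every V321L mouse than in any WT mouse, *Homer1* and *Inhba* lower, and *Egr3* overlapped.

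Of the Egr genes, *Egr1* stood at 3.62, 2.09, 5.19 and 4.06 CPM in the WT mice and 10.8, 4.01, 7.61 and 8.30 CPM in the V321L mice (0.65 ± 0.34 SE, adjusted p = 0.108) and *Egr3* at 18.7, 10.03, 17.9 and 15.2 CPM in the WT mice and 21.8, 11.8, 12.8 and 26.2 CPM in the V321L mice (-0.20 ± 0.26 SE, adjusted p = 0.501), and neither passed the threshold. *Egr4* held 0, 0, 3 and 1 UMIs in the WT mice and 34, 27, 15 and 27 UMIs in the V321L mice, a rise called at an adjusted p of 1.99e-04. Of the nuclear receptors, 1 of 3 was called. *Nr4a1* stood at 0.904, 1.05, 4.04 and 1.90 CPM in the WT mice and 6.15, 5.92, 4.08 and 8.94 CPM in the V321L mice (1.42 ± 0.39 SE, adjusted p = 0.00557), without overlap. *Nr4a2* stood at 13.3, 8.36, 15.6 and 10.8 CPM in the WT mice and 20.5, 11.8, 21.2 and 17.9 CPM in the V321L mice (0.17 ± 0.22 SE, adjusted p = 0.510), and *Nr4a3* at 6.63, 5.85, 13.9 and 6.77 CPM in the WT mice and 10.8, 4.53, 5.98 and 13.1 CPM in the V321L mice (-0.33 ± 0.34 SE, adjusted p = 0.402), and both overlapped. *Arc* stood at 0.904, 0.836, 5.77 and 2.17 CPM in the WT mice and 4.36, 3.66, 5.71 and 10.2 CPM in the V321L mice (1.11 ± 0.50 SE, adjusted p = 0.0628) and also overlapped, since WT M1 was above 3 of the V321L mice. *Npas4* held 1, 2, 2 and 1 UMIs in the WT mice and 7, 6, 7 and 10 UMIs in the V321L mice and was not tested.

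Among the genes that restrain growth or signalling, *Btg2* stood at 14.8, 7.73, 12.7 and 10.3 CPM in the WT mice and 43.3, 40.8, 61.2 and 57.5 CPM in the V321L mice (1.74 ± 0.20 SE, adjusted p = 5.63e-06), and *Ier5* at 1.81, 1.25, 6.93 and 2.17 CPM in the WT mice and 23.8, 16.7, 19.3 and 26.5 CPM in the V321L mice (2.65 ± 0.34 SE, adjusted p = 1.20e-05). Both were without overlap. *Per1* stood at 2.71, 1.46, 8.08 and 2.44 CPM in the WT mice and 11.3, 8.71, 11.7 and 15.3 CPM in the V321L mice (1.47 ± 0.36 SE, adjusted p = 0.00251), and *Rgs2* at 4.52, 2.93, 5.19 and 4.88 CPM in the WT mice and 14.6, 9.93, 7.89 and 15.6 CPM in the V321L mice (1.04 ± 0.27 SE, adjusted p = 0.00392). *Gadd45b* stood at 0.301, 0.836, 2.89 and 0.542 CPM in the WT mice and 6.66, 3.14, 2.45 and 7.03 CPM in the V321L mice (1.87 ± 0.55 SE, adjusted p = 0.00800), with WT M1 above V321L M1. *Sik1* stood at 1.81, 1.46, 2.31 and 3.25 CPM in the WT mice and 3.08, 4.01, 4.35 and 3.83 CPM in the V321L mice (0.36 ± 0.31 SE, adjusted p = 0.320). *Dusp1* held 3, 2, 3 and 2 UMIs in the WT mice and 9, 3, 2 and 10 UMIs in the V321L mice and did not pass the filter. The transcription factors *Klf6* (0.18 ± 0.41 SE, adjusted p = 0.716) and *Nfil3* (0.74 ± 0.35 SE, adjusted p = 0.0723) were not past the threshold.

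*Homer1* and *Inhba* were called as lower in V321L GCs with TMM scaling and with library sizes, whereas *Ptgs2*, *Tiparp* and *Fosl2* were called as lower with TMM scaling alone. *Homer1* and *Inhba*, given above, had log2 fold changes of -1.35 ± 0.11 SE, adjusted p = 6.41e-07 and -1.10 ± 0.12 SE, adjusted p = 4.86e-06. *Ptgs2* stood at 13.9, 11.1, 12.1 and 12.2 CPM in the WT mice and 12.8, 10.6, 13.3 and 11.8 CPM in the V321L mice (-0.47 ± 0.17 SE, adjusted p = 0.0228) and *Tiparp* at 22.9, 19, 20.8 and 24.7 CPM in the WT mice and 18.7, 25.1, 25.8 and 19.2 CPM in the V321L mice (-0.42 ± 0.16 SE, adjusted p = 0.0319), with overlapping CPM. The call was lost for *Ptgs2* without V321L F2 or V321L M2 (adjusted p = 0.0519 to 0.0790) and *Tiparp* without WT M2, V321L F1 or V321L M2 (adjusted p = 0.0658 to 0.103). With library sizes in place of TMM scaling 15 genes were higher and 2 lower, where 54.2% of all genes tested were higher and 17.5% lower. Under it *Ptgs2* (-0.02), *Tiparp* (0.03) and *Fosl2* (-0.32) were no longer called, and *Egr1* (1.09), *Arc* (1.55), *Nr4a2* (0.61), *Sik1* (0.81) and *Nfil3* (1.18) were called as higher. The share of calls that were higher was 66.7% among these genes with TMM and 88.2% with library sizes, against 55.1% and 75.6% among all genes called. The remaining 13 of the 36 (*Fos*, *Fosb*, *Egr2*, *Npas4*, *Ier2*, *Dusp1*, *Dusp5*, *Dusp6*, *Klf4*, *Csrnp1*, *Maff*, *Atf3* and *Trib1*) held at most 12 UMIs in any GC sum and were not tested. A genotype effect that differed by sex was called by edgeR for 0 of the 23 genes (0 at an unadjusted p under 0.05, with 2 mice of each sex per genotype).

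Detection was compared after thinning each nucleus to 1000 UMIs, which left 4911 WT and 4027 V321L GCs. The share of GCs with a UMI was higher in all 4 V321L mice than in all 4 WT mice for 9 of the 36 genes (*Jun*, *Junb*, *Jund*, *Egr4*, *Nr4a1*, *Ier5*, *Btg2*, *Per1* and *Rgs2*) and lower for *Homer1* and *Inhba*. Such a separation has an exact permutation p of 0.0286 (two-sided, unadjusted), the smallest that 4 against 4 mice can give. Of 12337 genes, 40.7% were higher and 11.2% lower without overlap. The 9 genes belong to the 23 that passed the same low-count filter as those 12337, a share of 39.1%, which is near that of all genes. *Jun* was found in 2.90% ± 1.08 of WT and 10.4% ± 2.13 of V321L GCs (SD, n = 4 each), *Homer1* in 16.6% ± 0.189 of WT and 8.90% ± 1.61 of V321L GCs, and *Nr4a1* in 0.218% ± 0.140 of WT and 0.621% ± 0.138 of V321L GCs. Without thinning, *Jun* was found in 4.70% of WT and 32.7% of V321L GCs, *Homer1* in 25.7% and 29.0%, and *Nr4a1* in 0.320% and 1.88%. With all UMIs 26 of the 36 and 19 of the 23 genes were higher in every V321L mouse (82.6% of the 23, against 80.6% of all genes) and 0 were lower (0.494% of all genes), and *Homer1*, lower at equal depth, overlapped. In oligodendrocytes, with median depths of 727 and 1097.5 UMIs, *Jun* was found at 1000 UMIs in 0 of 27 WT nuclei, which allows a share of up to 11.1%, and in 5.57% of 341 V321L nuclei, *Homer1* in 11.1% and 3.81%, and *Nr4a1* in 0 of 27 and 0.587%. The shares of *Jun* and *Homer1* in V321L GCs lay above those in V321L oligodendrocytes. For *Homer1* the share in V321L GCs lay below that of the 27 WT oligodendrocytes, and for *Jun* it lay below the limit given for them. That of *Nr4a1* in V321L GCs was close to its share in V321L oligodendrocytes, which rested on very few nuclei. Whether oligodendrocytes make these RNAs themselves was not tested. At this depth 66.8% to 70.8% of the GCs of a WT mouse and 58.5% to 64.8% of those of a V321L mouse held none of the 36 genes, and at least 3 of them were found in 0.166% to 1.83% and 1.09% to 2.44%. In sums of thinned GCs 11 genes passed the filter, of which *Jun*, *Junb*, *Jund*, *Ier5* and *Btg2* were higher and *Homer1* and *Inhba* lower, where 34.5% of all genes tested were higher and 30.8% lower.

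The direction of the genotype difference went with the span of the gene. Spans, from RefSeq on GRCm38.p6, were found for 11665 of the 12337 genes tested and for all 36 of the activity-induced genes, whose median span was 7.96 kb, against 27.5 kb for the genes tested. Of genes under 5 kb, 84.9% were higher in V321L GCs, with a median log2 fold change of 2.31, and 8 of the 10 activity-induced genes tested in this class were higher. Of genes over 100 kb, 80.0% were lower, with a median of -0.83, and *Homer1* was the only activity-induced gene of this class. Between 5 and 20 kb the median was 0.94, and 1 of 7 activity-induced genes was higher and 1 lower, where 65.7% of all genes in the class were higher and 7.68% lower. Between 20 and 100 kb it was -0.08, and 1 of 5 was higher and 3 lower, where 25.2% of all were higher and 33.2% lower. Ribosomal protein genes, which are short, were higher for 81 of 81 tested, with a median log2 fold change of 3.88. The part of this pattern in the values of single genes was not tested.

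**Figure D4:**
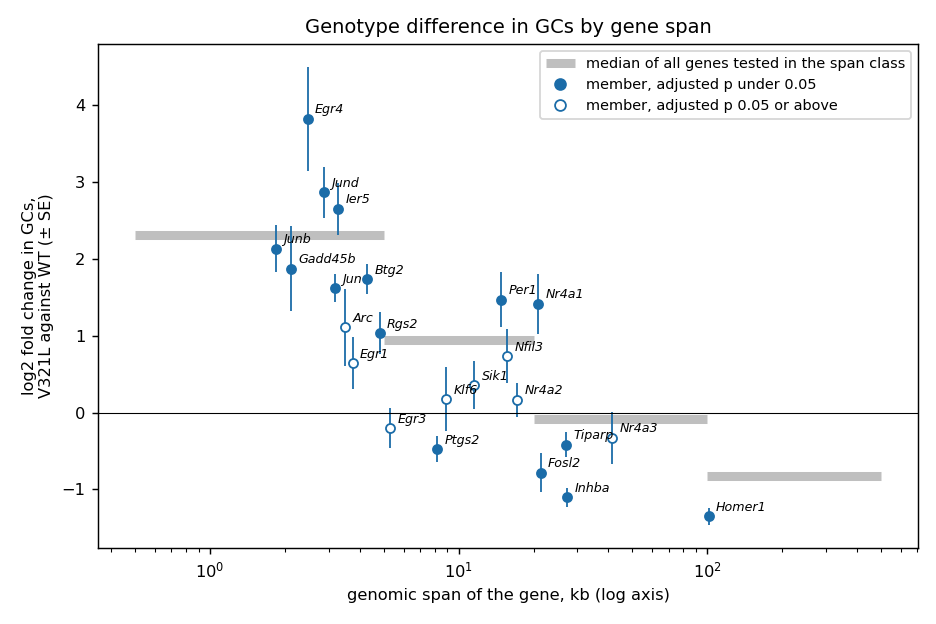
Log2 fold change in GCs (V321L against WT, ± SE) of the 23 activity-induced genes tested, against the genomic span in kb (log axis), with filled points for an adjusted p under 0.05 and grey bars for the median of all genes tested in each span class. The medians fall from 2.31 under 5 kb to -0.83 over 100 kb. Among genes under 5 kb *Egr4*, *Jund* and *Ier5* lie above the median while *Jun*, *Junb*, *Btg2*, *Gadd45b*, *Rgs2*, *Arc* and *Egr1* lie below it.

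Other excitatory neurons of the dissected tissue were compared by genotype in the same way. Here 18 of the 36 genes passed the filter, 10 were higher and 4 lower in V321L mice, with 26.3% of all 8210 genes tested higher and 24.3% lower. Again a gene could pass the filter through its V321L sums alone. *Arc*, *Junb* and *Btg2* each stood at no more than 8.48 CPM in any WT sum. For *Jun*, *Ier5*, *Npas4* and *Jund* the highest WT sums were 6.22, 5.09, 3.53 and 3.39 CPM. Part of the count of 10 higher can therefore come from the filter. *Arc* stood at 1.55, 2.04, 8.48 and 1.18 CPM in the WT mice and 39.1, 47.8, 86.8 and 75.4 CPM in the V321L mice, without overlap (3.97 ± 0.49 SE, adjusted p = 1.56e-04). *Npas4* held 0, 1, 2 and 3 UMIs in the WT mice and 15, 17, 33 and 28 UMIs in the V321L mice (3.41 ± 0.49 SE, adjusted p = 3.32e-04). *Nr4a1* stood at 9.32, 10.2, 37.3 and 14.1 CPM in the WT mice and 73.4, 121, 94.3 and 70.3 CPM in the V321L mice (2.01 ± 0.37 SE, adjusted p = 0.00126), and *Egr1* at 4.66, 8.83, 18.6 and 15.3 CPM in the WT mice and 41.6, 49.4, 50.4 and 71.3 CPM in the V321L mice (1.78 ± 0.33 SE, adjusted p = 0.00136). None of these 4 genes overlapped between the genotypes. *Jund*, *Junb*, *Ier5*, *Btg2*, *Per1* and *Jun* rose as well, by 1.62 (*Jun*) to 4.50 (*Jund*) on the log2 scale. The call of *Per1* was lost without WT F1, WT F2, WT M2 or V321L F2 (adjusted p = 0.0503 to 0.0880).

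*Nr4a3* was called as lower in these neurons, with 87, 63.2, 115 and 96.6 CPM in the WT mice and 72.2, 62.2, 30.8 and 81.4 CPM in the V321L mice (-0.96 ± 0.26 SE, adjusted p = 0.0111), and its CPM values overlapped. *Homer1* (-1.07 ± 0.18 SE, adjusted p = 8.40e-04), *Inhba* (-1.46 ± 0.30 SE, adjusted p = 0.00254) and *Ptgs2* (-0.95 ± 0.35 SE, adjusted p = 0.0411) were the other genes called as lower. The calls of *Nr4a3* (-0.52, adjusted p = 0.160) and *Ptgs2* (-0.50, adjusted p = 0.269) were lost with library sizes, and that of *Ptgs2* without WT F1, WT F2, WT M2, V321L F1, V321L F2 or V321L M1 (adjusted p = 0.0579 to 0.147). *Fos* did not pass the filter and held 0, 1, 0 and 2 UMIs in the WT mice and 6, 5, 13 and 18 UMIs in the V321L mice. The median nucleus of this class held 2306.5 UMIs in WT and 5275 in V321L mice.

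The genotype effect in GCs was tested against that in other excitatory neurons of the same mice. Of 28 genes tested only *Arc* was called, as 0.219% of all genes were, with a difference of -3.05 ± 0.54 SE, adjusted p = 0.0390 on the log2 scale, the effect in GCs being the smaller one. The call of *Arc* was lost with library sizes (adjusted p = 0.0720) and when any single mouse other than V321L M1 was left out (adjusted p = 0.0530 to 0.320), at differences of -3.28 to -2.60 over the 8 omissions. Of the 28 genes, 6 had an unadjusted p under 0.05. In GABAergic neurons *Homer1* was the only gene that passed the filter and fell, with 229.9, 226, 264 and 226 CPM in the WT mice and 102, 85.1, 97.1 and 130.02 CPM in the V321L mice (-1.24 ± 0.21 SE, adjusted p = 1.57e-04), where 35.2% of all genes tested were called. In astrocytes (7 mice, since WT M1 had too few) *Homer1* fell by 1.57 on the log2 scale (adjusted p = 0.00394) and *Tiparp* had a value of -0.15 (adjusted p = 0.736), with 45.0% of all genes called. In oligodendrocytes 0 of the 36 passed the filter.

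The cell classes of the DG differed in which of these genes they held. Other excitatory neurons, compared with GCs within the 8 mice, had 17 of 28 genes tested higher and 3 lower, where 17.6% of all genes tested were higher and 20.7% lower. The filter used the sums of both classes together, so a gene could pass through the sums of either class alone. *Dusp5*, *Dusp6*, *Npas4* and *Fos*, which did not pass it in GC sums, had GC means of 1.06, 0.781, 1.26 and 0.969 CPM. Part of the count of 17 higher can therefore come from the filter. The same limit applies to the other classes compared with GCs below. The largest differences were in *Dusp5*, a phosphatase specific for ERK (3.82 ± 0.25 SE, adjusted p = 5.76e-08), *Nr4a1* (3.71 ± 0.22 SE, adjusted p = 1.70e-08) and *Dusp6*, another ERK phosphatase (3.59 ± 0.46 SE, adjusted p = 3.13e-05). *Npas4* (3.46), *Nr4a3* (3.19), *Arc* (2.88), *Fos* (2.64), *Egr1* (2.47) and *Homer1* (1.49) were also higher. The mean of *Nr4a3* was 76.1 CPM in other excitatory neurons and 8.43 CPM in GCs, and that of *Fos* was 6.07 and 0.969 CPM. Of the calls, those lost on leaving out a mouse were *Dusp1* without V321L F2 or V321L M1 (adjusted p = 0.0514 to 0.0520), *Egr4* without V321L F1, V321L F2 or V321L M2 (adjusted p = 0.0538 to 0.0774), *Nr4a2* without V321L F2 or V321L M2 (adjusted p = 0.0542 to 0.0662), *Btg2* without WT F1, WT M2 or V321L M2 (adjusted p = 0.0505 to 0.0558) and *Ptgs2* without WT F1, WT F2, WT M1, WT M2, V321L F1 or V321L M2 (adjusted p = 0.0516 to 0.119). *Jun*, *Inhba* and *Btg2* were lower, with log2 fold changes of -2.50, -1.03 and -0.86.

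**Figure D5:**
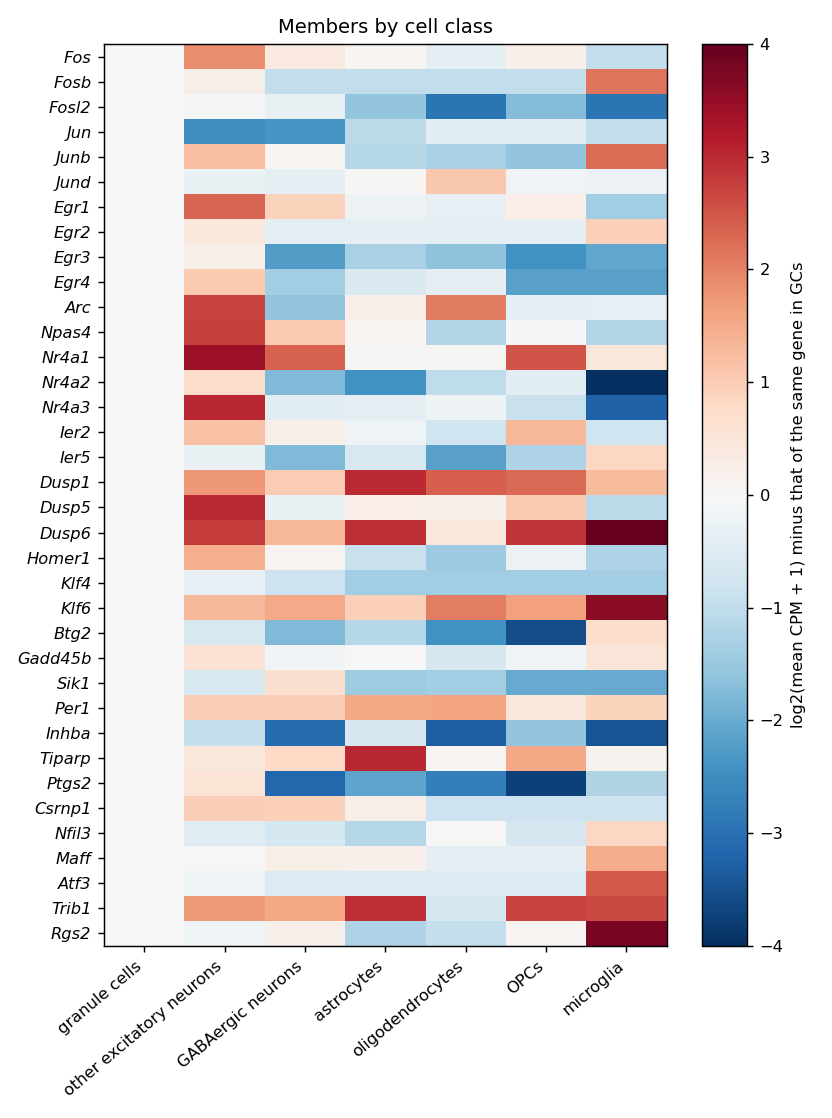
Mean level of each of the 36 genes in 7 cell classes as log2(mean CPM + 1) minus the value of the same gene in GCs (colour, limited to between -4 and 4), averaged over mice with enough nuclei. Other excitatory neurons are above GCs for *Nr4a1*, *Nr4a3*, *Dusp5*, *Npas4* and *Arc* and below them for *Jun*, while *Tiparp*, *Trib1* and *Dusp1* stand out in astrocytes and *Rgs2*, *Dusp6* and *Klf6* in microglia.

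By the mean over mice, 14 of the 36 genes were highest in other excitatory neurons and 10 in microglia. A class mean used only mice with at least 20 nuclei of that class. For microglia this left out WT F1 (17 nuclei) and WT M1 (2 nuclei) but no V321L mouse. The order of the classes can therefore carry genotype differences, and their part in it was not tested. The same counts over all genes are not given, so they are not shown to be particular to these genes. GCs were the highest class for *Jun*, *Inhba* and *Fosl2* (70.9, 45.0 and 6.52 CPM), and *Fosl2* was not separated from its neighbour in this order, other excitatory neurons (log2 fold change -0.08, adjusted p = 0.881). GABAergic neurons had 3 of 19 genes higher than GCs and 7 lower (17.6% and 22.2% of all genes tested). *Nr4a1* (2.55), *Klf6* (1.67) and *Tiparp* (0.69) were higher, and *Ptgs2* (-4.32), *Inhba* (-3.18) and *Egr3* (-2.83) were the lowest relative to GCs. *Homer1* had a value near 0 (-0.05 ± 0.12 SE, adjusted p = 0.833). The call was lost for *Klf6* without V321L F2 (adjusted p = 0.0696) and *Tiparp* without WT F2 or V321L F1 (adjusted p = 0.0767 to 0.102).

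Astrocytes had 5 of 25 genes higher than GCs and 10 lower (20.3% and 28.6% of all genes tested, 7 mice). *Tiparp* stood at 363, 169 and 98.9 CPM in WT F1, F2 and M2 and 176, 238, 127 and 137 CPM in the V321L mice and its log2 fold change against GCs was 2.69 ± 0.19 SE, adjusted p = 5.97e-42. *Trib1*, a pseudokinase (3.61), *Dusp6* (3.56), *Dusp1* (3.28) and *Per1* (1.49) were the other genes that were higher. *Trib1*, *Dusp6* and *Dusp1* did not pass the filter in GC sums, where their means were 0.611, 0.781 and 1.27 CPM. They could therefore enter this test through their astrocyte sums alone. Oligodendrocytes had 5 of 23 higher and 11 lower (14.4% and 32.0% of all genes tested, 7 mice), with *Dusp1* (2.10), *Arc* (1.95), *Per1* (1.51), *Klf6* (1.48) and *Jund* (0.82) higher. The *Arc* value rested on 17 UMIs in the oligodendrocytes of 8 mice. Free RNA held *Arc* at a mean of 12.1 CPM in WT and 33.9 CPM in V321L libraries, and its part in this value was not tested. The calls of *Dusp1* without WT F1, WT M2, V321L F1 or V321L F2 (adjusted p = 0.0635 to 0.123), *Klf6* without WT F2, WT M2 or V321L F2 (adjusted p = 0.0549 to 0.327) and *Jund* without V321L F1 or V321L M2 (adjusted p = 0.0637 to 0.116) were lost. Microglia, with enough nuclei in 6 mice, had 5 of 26 higher and 7 lower (12.9% and 34.2% of all genes tested). *Dusp6* (4.39), *Atf3* (3.15), *Rgs2* (2.91), *Klf6* (2.81) and *Junb* (1.51) were higher. Of these, *Dusp6* and *Atf3*, with GC means of 0.781 and 0.459 CPM, could likewise enter the test through their microglia sums alone. The call of *Junb* without V321L F2 or V321L M1 (adjusted p = 0.0699 to 0.269) was lost. *Nr4a2*, *Nr4a3* and *Fosl2* had 0 UMIs in the microglia of all 8 mice.

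Open chromatin at the starts of the 36 genes was read from the same GCs. Since each library has its own peaks, only regions that held a peak in every library were compared. They lay between the first and last annotated start of a gene or within 1000 bases of these. For genes with several starts, *Per1* and *Nr4a2* among them, a region could therefore lie between starts. Such a region was found for 33 of the 36 genes (43 regions), and not for *Egr3*, *Ier2* and *Inhba*. Of the 43 regions, 0 were called as different between genotypes by edgeR (3 at an unadjusted p under 0.05), and 0.0195% of the 25577 regions tested were. The log2 fold changes of the 43 regions ran from -0.23 to 0.50, with a median of -0.09. The 3 regions with a low unadjusted p belonged to *Atf3* (0.50 ± 0.17 SE, adjusted p = 0.370), *Gadd45b* (-0.22, adjusted p = 0.563) and *Egr1* (-0.23, adjusted p = 0.566). The share of GCs with a count in the region at the start of *Nr4a1* (chr15:101266261-101267217, holding the sequence printed above) was 6.43%, 3.03%, 7.74% and 5.90% in the WT mice and 5.56%, 8.48%, 15.7% and 5.02% in the V321L mice. The median ATAC count per GC ran from 1978 to 5423 in WT and from 2545 to 13322 in V321L mice, and within each genotype the shares followed the order of the depth.

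Of 22 further activity-induced genes outside the 36, 17 were tested between genotypes in GCs, and 7 were higher and 1 lower in V321L mice, led by *Klf2* (2.60), *Nptx2* (1.81), *Gadd45g* (1.78) and *Scg2* (1.19). Over all genes tested, 38.6% were higher and 31.5% lower. In *Sorcs3*+ GCs 7 of 15 were higher and 0 lower, led by the prohormone convertase *Pcsk1* (4.41), the synaptic pentraxin *Nptx2* (3.50), the secreted neuropeptide precursor *Vgf* (1.85) and the neurotrophin *Bdnf* (1.51). The same 4 led the 7 of 16 that were higher in *Penk*+ GCs, at 3.29, 2.43, 1.26 and 1.18. Over all genes tested, 6.25% were higher and 6.54% lower in *Sorcs3*+ GCs, and 2.21% and 3.84% in *Penk*+ GCs. The study had already named *Nptx2* a marker of *Penk*+ GCs from these nuclei. *Pcsk1*, *Nptx2* and *Bdnf* were also among the genes that set cluster 16 apart most, so their rise is not an independent result. Of 22 genes upstream in the pathway (CREB, its coactivators, SRF, MEF2, kinases and calcium channels), all were tested between genotypes, and 7 were higher and 10 lower, with the kinase *Mapk3* at 2.10, the coactivator *Crtc2* at 1.55, the kinase *Camk4* at -1.45 and *Mef2a* at -1.16. The shares over all genes, given above, apply to these counts and to those that follow. In *Sorcs3*+ GCs 3 of 21 were higher and 3 lower, none by more than 0.66 in size, and in *Penk*+ GCs 0 were higher and 3 lower, with *Camk4* at -0.87 and -0.66 in *Penk*+ and *Sorcs3*+ GCs.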

How the data were processed

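Nuclei from the dissected DG of 4 WT and 4 V321L mice were profiled as 1 library per mouse. Per the labels, the authors aligned the reads to mm10 with Cell Ranger and worked in Seurat and Signac. The deposited values are raw counts, UMIs per gene for RNA and fragment cut counts per peak for open chromatin, with peaks called in each library separately. Nothing was normalised or pooled before deposit.

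Nuclei were kept with more than 500 UMIs and 250 genes and below the upper limits on UMIs, genes and mitochondrial share stated for the study. At least 500 ATAC counts in peaks were asked for, in place of the limit of the study on fragments, and Scrublet doublets were removed per library. The nuclei were clustered with scanpy 1.11.5 and leidenalg 0.10.2 (3000 variable genes without the 36 genes, *Penk* and *Sorcs3*, 75 components, 20 neighbours, resolution 1), and clusters were named from marker lists. Counts were summed per mouse and class (at least 20 nuclei). Differences between sums were tested in R 4.3.3 with edgeR 4.0.16 (quasi-likelihood F-test), TMM scaling, its default low-count filter and Benjamini-Hochberg adjustment over all genes tested, and the scripts were tested on simulated data. Mouse was a block in tests within mice. WT M1 was left out of the astrocyte and oligodendrocyte fits, and 6 mice entered the microglia fit. Shares of nuclei were compared after thinning each nucleus to 1000 UMIs, by exact permutation tests in Python 3.11.15 with numpy 2.4.6. Intervals and limits on counts cover counting error only. Same-numbered mice did not deviate together (correlations of 0.04, 0.29, -0.13 and 0.07 for F1, F2, M1 and M2), so they were not treated as pairs.

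The genes, the lists of related genes and the tests were chosen with earlier results of these data known. Genes named with the value of every mouse in at least 1 comparison were those called in GCs between genotypes with a log2 fold change of at least 1 in size and no overlap, those called in the *Penk* or *Sorcs3* comparison, and *Fos*, *Junb*, *Egr1*, *Arc*, *Npas4*, *Nr4a1* and *Homer1*. Others named were chosen after their values were seen. The tests of a genotype difference in the *Penk* and *Sorcs3* effects and of genotype by sex were added after the data were seen. Alternatives were DESeq2 1.42.0, library sizes, no low-count filter, doublets kept, other thinning depths, other cluster resolutions, sex or the replicate number as a term, single sexes or genotypes, GCs by marker UMIs, other ATAC limits and promoter windows, depth-matched nuclei and leaving out each mouse.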

Additional observations from a re-analysis of the deposited data

Results flagged for a closer look

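In 5 of the 91 groups of 4 mice examined (genes with at least 20 UMIs in a genotype), a single mouse stood far from the remaining 3, where chance flags about 1 in 20 groups. WT M1 was the high mouse for *Nr4a3* in GCs (13.9 CPM, the others at 5.85 to 6.77) and for *Ier5* in GCs (6.93 CPM, the others at 1.25 to 2.17), and also for *Dusp6* in other excitatory neurons (18.6 CPM). V321L M1 stood apart in other excitatory neurons for *Ier5* (32.7 CPM) and *Btg2* (79.3 CPM). WT M1 was the shallowest WT library by GC depth and V321L M1 gave the fewest GCs.

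The genotype effect on *Arc* differed between GCs and other excitatory neurons by -3.05 on the log2 scale, by a test of the difference itself, and the call was lost on leaving out 7 of the 8 mice one at a time.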

How the results depend on the processing

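Of the values of single genes under the alternatives, 1298 kept their direction and side of the threshold, 159 were no longer called, 11 became called and 3 changed sign. Those 3 were *Tiparp* between genotypes in GCs with library sizes (0.029), *Jund* in *Sorcs3*+ GCs without GCs holding a UMI of the list for other excitatory neurons (-0.0791), and *Homer1* in *Sorcs3*+ GCs without cluster 16 (-0.0697). The alternatives without cluster 16 and without GCs holding such a UMI were chosen after seeing the data.

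The 15 genes called between genotypes in GCs became 7 at 1000 UMIs, 5 at 500 UMIs and 8 in males only (fewer genes or mice tested), and 13 to 17 on leaving out a mouse. With the replicate block there were 17, but same-numbered mice share only a number. The 14 calls in other excitatory neurons ranged from 12 to 16. Without the low-count filter 5 genes were called in GABAergic neurons, 2 in astrocytes and 1 in oligodendrocytes (0 to 1 on leaving out a mouse, 1 without WT F1 or WT F2). The difference between GC and other excitatory effects fell from 1 call to 0 with library sizes and to between 0 and 1 on leaving out a mouse.

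The 16 calls in *Sorcs3*+ GCs became 6 without cluster 16, 7 without GCs holding a UMI of the other excitatory list, 6 in WT mice only, and 11 to 16 on leaving out a mouse (11 without V321L M2). The 6 calls in *Penk*+ GCs became 3 against depth-matched nuclei, 1 without cluster 16, 0 without GCs holding such a UMI, 0 in WT mice only, and 4 to 7 on leaving out a mouse. The 11 genes without overlap in the share of GCs became 26 with all UMIs and 2 when 2 UMIs were asked for, and 11 to 15 on leaving out a mouse. Against GCs, leaving out a mouse gave 16 to 20 calls in other excitatory neurons, 9 to 11 in GABAergic neurons, 14 to 15 in astrocytes, 13 to 15 in oligodendrocytes and 9 to 11 in microglia. Promoter regions gave 0 calls throughout. Where not named otherwise, the cause of a change was not tested. Depth limits the genes under about 20 UMIs in a GC sum, *Fos*, *Npas4* and *Dusp1* among them.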
